A study of Homo sapiens with 20 samples.

Results

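The mRNA footprints described here came from initiation complexes that held HA-tagged eIF1, recovered from HEK 293T cells after 1 h with 5 µM i14G1-12 or with DMSO, its solvent. They are 6 of the 20 libraries of the series, 3 for i14G1-12 and 3 for DMSO, and were chosen by the factor that the immunoprecipitation targeted, with all genes kept. HEK 293T is a transformed human embryonic kidney line, and the labels give its genotype as WT in both groups. They do not say how the tagged eIF1 was expressed. The other 14 libraries held eIF4G1 (6 libraries), eIF3 (4) or eIF2a (4) complexes from cells given the same treatments, and are used below only for comparison. The title of the series places the experiment in the context of an inhibitor of the eIF1-eIF4G1 pair.

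eIF1 is a small initiation factor that sits close to the P site of the small ribosomal subunit, keeps the subunit in a form that can scan the leader of an mRNA, and helps it to reject poor start codons. eIF4G1 is the scaffold of the cap-binding complex and links the capped mRNA end to the small subunit through eIF3. Selective translation complex profiling fixes such complexes with formaldehyde, trims the exposed RNA with RNase I, separates the complexes by ultracentrifugation and pulls down those that hold a chosen factor. The protected fragments were counted per gene. No input library was analysed here, and each value therefore measures how the recovered RNA was divided among genes. More initiation complexes per mRNA and more copies of that mRNA cannot be told apart.

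Genes are identified by Ensembl ID, because neither the deposited tables nor the reference used here pairs these IDs with symbols. The exception is ENSG00000173812, which is EIF1, the gene of the tagged factor. For the same reason the changes below are described by level, length, spread and behaviour in the other immunoprecipitations, and not by the function of the encoded proteins.

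The libraries of i14G1-12-treated cells held 564021, 600524 and 503668 counts, and those of DMSO-treated cells 1161512, 946004 and 806429. The treated libraries were thus all shallower, at 556071 ± 48915 against 971315 ± 178890 counts (SD, n = 3 each). Library i14G1-12 a stood apart: its Spearman correlation with the other 5 lay between 0.745 and 0.824, whereas pairs of the remaining libraries reached 0.832 to 0.890. These are correlations across 8337 genes of log2(CPM + 2), which are not independent replicates, and results that rest on this library are given with and without it. Separate cultures are not stated for the replicates. The p-values therefore reflect variation between libraries, which may be technical.

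EIF1 was the most counted gene in all 6 eIF1 libraries. It lies on chromosome 17 at 41688885 to 41692668 of GRCh38.p14 in the RefSeq annotation, as a protein-coding gene. It took 16.7%, 6.24% and 7.66% of counts after i14G1-12, against 14.01%, 5.45% and 7.22% in DMSO. Exact binomial 95% intervals, which cover counting error only, were 16.6% to 16.8% for the highest of these libraries and 5.41% to 5.50% for the lowest. Library a was high in each treatment, and the groups overlapped. In the 14 libraries of the other factors EIF1 took 0.0848% to 0.455% and ranked between 4 and 99. The mean share was 10.2% ± 5.66 with i14G1-12 and 8.90% ± 4.52 with DMSO (SD, n = 3 each).

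**Figure D1:**
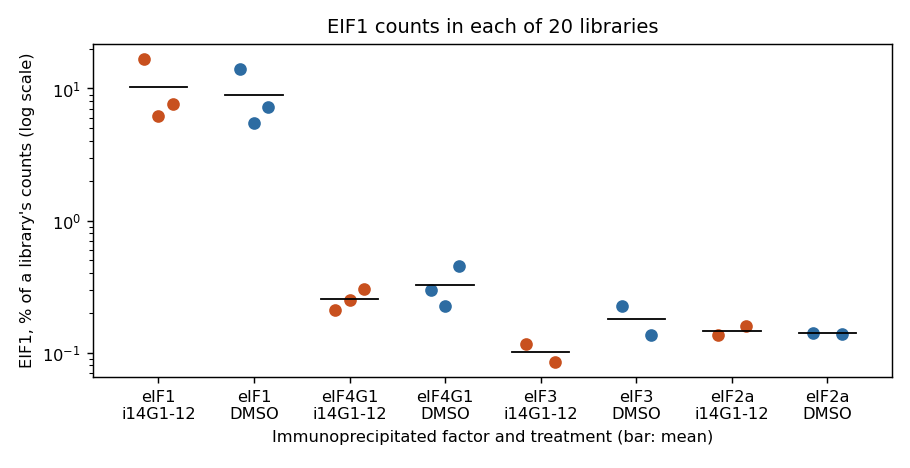
EIF1 counts as a percent of all counts, on a log axis, for each library (points) by immunoprecipitated factor and treatment, with the mean of each group as a bar. All 6 eIF1 libraries lie at 5.45% or above, and all 14 others at 0.455% or below.

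Relative to the rest of the RNA, EIF1 differed by 0.41 on the log2 scale, i14G1-12 over DMSO (SE 0.44), which did not pass the test (edgeR quasi-likelihood, adjusted p = 0.757). The value was -0.39 without i14G1-12 a (edgeR adjusted p = 0.687) and 1.01 without DMSO a (edgeR adjusted p = 0.242). Leaving out 1 of these libraries removes a high EIF1 share from only 1 group. In the order of the columns, each i14G1-12 library had a larger EIF1 share than the DMSO library of the same letter. Whether these libraries pair was not tested. Because this gene held a large and uneven share of counts, library sizes and TMM factors were computed without it. Levels below are CPM, counts scaled to these library sizes. They are not divided by length unless stated.

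After 1 h of i14G1-12 the largest called rises in eIF1 complexes were those of ENSG00000120738 and ENSG00000170345, and the largest called fall was that of ENSG00000197111. Of 8338 genes tested, 27 rose, or 0.324% of those tested, and 11 fell, or 0.132% (edgeR quasi-likelihood, Benjamini-Hochberg adjusted p under 0.05). The risers had log2 fold changes of 0.94 to 3.33 with a median of 1.27. Only 4 of the 27 exceeded 2 on this scale, at 3.33, 3.31, 2.70 and 2.10, and the fifth was at 1.57. The fallers were closer together, at -1.003 to -1.70 with a median of -1.15. The median over all genes tested was 0.01, with quartiles of -0.30 and 0.32, and 51.4% of genes were higher.

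The count depended on single libraries. Without i14G1-12 a, 22 genes rose and 13 fell, and 25 of the 38 genes were among them. Leaving out i14G1-12 b instead gave 13 risers and 4 fallers, and leaving out i14G1-12 c gave 3 and 1. Among the DMSO libraries, leaving out a gave 34 and 21, leaving out b 3 and 2, and leaving out c 1 and 1. All 27 risers and all 11 fallers kept their direction in each of these 6 fits, which adds no support to the calls. Their treated and DMSO libraries did not overlap, so leaving 1 out left little room for a change of direction. In 1 fit to the 12 libraries of eIF1 and eIF4G1, 3 genes rose and 2 fell, all 5 among the 38, whereas the DESeq2 Wald test called 113 risers and 61 fallers. An unadjusted p under 0.05 was found for 1030 genes, 558 of them higher and 472 lower, where 416.9 would be expected if no gene changed.

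**Figure D2:**
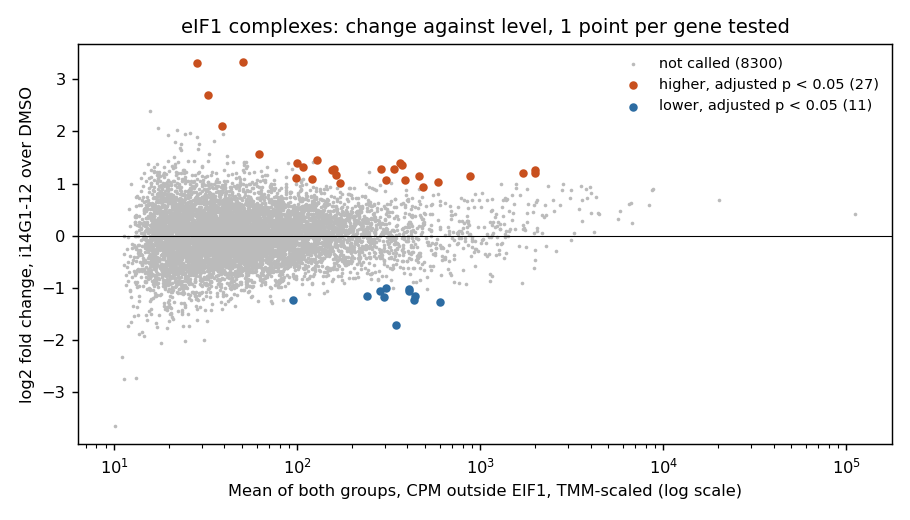
log2 fold change, i14G1-12 over DMSO, against the mean level of both groups in CPM outside EIF1 (log axis) for the 8338 genes tested in eIF1 complexes. The 27 risers are orange, the 11 fallers blue and all other genes grey. The 4 largest rises lie at low levels, and EIF1 is the point farthest to the right.

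The largest rise was that of ENSG00000120738, whose counted sequence is 3137 nt long. It had 140, 59.3 and 79.1 CPM in the i14G1-12 libraries a, b and c, against 9.92, 11.4 and 5.05 CPM in the DMSO libraries. Every treated library was above every DMSO library by a wide margin, and library a was the highest. These values rest on 56, 34 and 37 counts with i14G1-12 and on 10, 11 and 4 counts with DMSO. The means were 92.9 ± 42.2 and 8.80 ± 3.34 CPM (SD, n = 3 each), and on the log2 scale i14G1-12 over DMSO was 3.33 (SE 0.43, edgeR adjusted p = 0.000353). It was called in every leave-one-out fit, with an edgeR adjusted p of at most 0.00809 over the 14 alternatives that tested it. The DESeq2 Wald test gave it no adjusted p.

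The next largest was that of ENSG00000170345 (2104 nt). It had 87.7, 41.9 and 25.6 CPM with i14G1-12, against 9.92, 3.12 and 1.26 CPM with DMSO. The groups did not overlap, but the spread within each was wide, with library a the highest in both. The counts were 35, 24 and 12 with i14G1-12, and 10, 3 and 1 with DMSO. The log2 fold change was 3.31 (SE 0.61, edgeR adjusted p = 0.0142; means 51.7 ± 32.2 and 4.77 ± 4.56 CPM, SD, n = 3 each). It lost the threshold without i14G1-12 a, DMSO b or DMSO c (edgeR adjusted p = 0.0902, 0.0840 and 0.155), and in 1 fit to the 12 libraries of eIF1 and eIF4G1 (edgeR adjusted p = 0.0542). The fit with a minimum count of 30 did not test it, and the DESeq2 Wald test gave it no adjusted p.

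Among the fallers, ENSG00000197111 (3159 nt) changed most. It had 120, 133 and 233 CPM in the i14G1-12 libraries, against 430, 722 and 432 CPM in the DMSO libraries. The highest treated library was well below the lowest DMSO library. The means were 162 ± 61.8 and 528 ± 168 CPM (SD, n = 3 each), which gave -1.70 for i14G1-12 over DMSO on the log2 scale (SE 0.27, edgeR adjusted p = 0.00410). It was called in every leave-one-out fit, and its adjusted p was at most 0.0336 over all 15 alternatives (edgeR in 14, DESeq2 in 1). It and ENSG00000120738 were the 2 genes of the 38 for which every leave-one-out fit made the call.

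The next faller, ENSG00000008988, has a counted sequence of only 519 nt. It had 278, 382 and 389 CPM with i14G1-12, against 873, 831 and 843 CPM with DMSO. The DMSO libraries were nearly equal, and the treated libraries lay well below them. The means were 350 ± 62.1 and 849 ± 21.5 CPM (SD, n = 3 each). The log2 fold change was -1.28 (SE 0.21, edgeR adjusted p = 0.00633). It lost the threshold without i14G1-12 c or DMSO c (edgeR adjusted p = 0.0603 and 0.0979).

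Per kilobase of counted sequence, the level of ENSG00000008988 was 674 CPM with i14G1-12 and 1636 CPM with DMSO. That of ENSG00000197111 was 51.3 CPM per kilobase with i14G1-12 and 167 with DMSO. ENSG00000120738 reached 29.6 CPM per kilobase with i14G1-12, against 2.81 with DMSO, and ENSG00000170345 24.6 against 2.27. On this length-corrected scale both leading risers stayed below both leading fallers even after treatment.

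**Figure D3:**
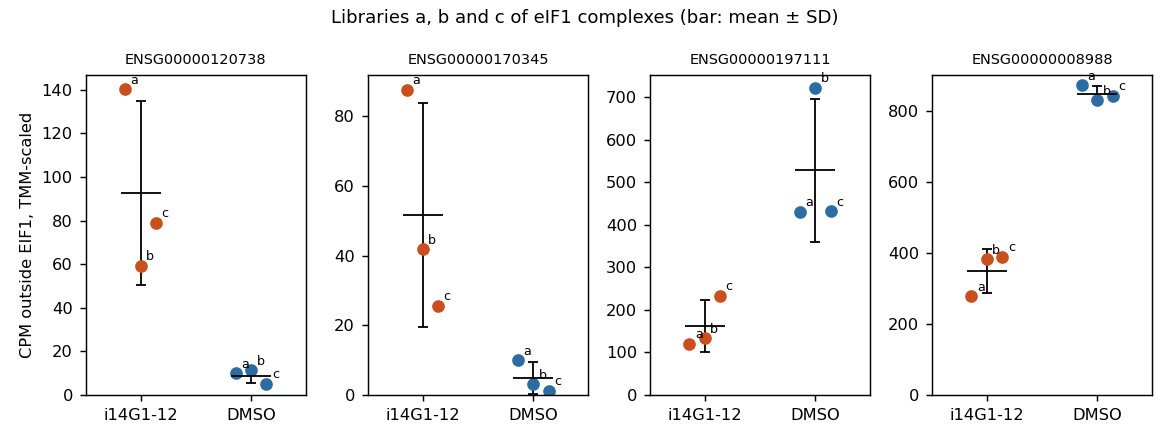
CPM outside EIF1 (linear axis from 0, a different scale in each panel) of the 2 largest risers and the 2 largest fallers in libraries a, b and c, with i14G1-12 in orange at the left and DMSO in blue at the right; bars are mean ± SD. No group overlaps its partner, and ENSG00000008988 has the smallest DMSO SD relative to its mean, at 849 ± 21.5 CPM.

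All 27 risers and all 11 fallers had treated and DMSO libraries that did not overlap. Over all genes tested, 739 (8.86%) were higher in every treated library than in every DMSO library and 783 (9.39%) were lower in every treated library. Since the same contrast made the calls, this separation describes the called genes and adds no support to them.

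The risers spanned a wide range of levels. Their group means lay between 51.7 and 2805 CPM with i14G1-12 (median 230), and between 4.77 and 1206 CPM with DMSO (median 114). After treatment 4 of them had 1000 CPM or more, whereas 5 were under 100 CPM in both groups. As a percent of the effective library size (TMM, without EIF1), the risers summed to 2.04%, 1.42% and 1.39% with i14G1-12. With DMSO the values were 0.814%, 0.590% and 0.686%. These are not shares of the counts, since the effective size of i14G1-12 a was 84.9% of its counts outside EIF1. Summed, the risers averaged 16186 ± 3635 CPM with i14G1-12 and 6968 ± 1122 CPM with DMSO (SD, n = 3 each).

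The fallers spanned a narrower range of levels. Their means lay between 56.0 and 350 CPM with i14G1-12 (median 202), and between 133 and 849 CPM with DMSO (median 528). As a percent of the effective library size, the fallers summed to 0.190%, 0.258% and 0.257% with i14G1-12, against 0.477%, 0.618% and 0.514% with DMSO. The sums were 2352 ± 394 CPM with i14G1-12 and 5361 ± 733 CPM with DMSO (SD, n = 3 each). As the members were selected on this difference, these sums are a description and were not tested.

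Calls were concentrated among well-counted genes. When the tested genes were cut into 4 equal bins by mean level, 22 of the 27 risers and all 11 fallers were in the most abundant bin, which begins at 89.7 CPM. No riser or faller came from the lowest bin. Whether changes of poorly counted mRNAs could be detected at this depth was not tested by level.

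The most abundant mRNAs were more often higher than lower after treatment, but this weakened without library i14G1-12 a. Leaving out EIF1, 128 genes averaged 1000 CPM or more over both groups, and 96 of them were higher with i14G1-12, with a median log2 fold change of 0.30. Because this mean includes the treated libraries, genes that were high there entered the set more readily. Of the 128 genes, 47 were higher in every treated library than in every DMSO library and 15 were lower in every treated library. Over all genes tested these shares were 8.86% and 9.39%. By the test only 3 of the 128 rose and 0 fell, against 0.324% and 0.132% of all genes tested. At an unadjusted p under 0.05 edgeR had 48 of the 128 higher and 6 lower, against 6.69% and 5.66% of all genes tested. DESeq2 called 42 of the 128 higher and 6 lower, against 4.23% and 2.28% of the genes to which it gave an adjusted p. The 353 genes between 300 and 1000 CPM had a median of -0.02, with 173 of them higher. There the separation leaned the other way, with 51 genes higher and 83 lower in every treated library. By the test 9 of these 353 rose and 7 fell. The 1375 genes between 100 and 300 CPM had a median of 0.07, with 780 of them higher (56.7%), so the medians did not follow level in order. The 6481 genes under 100 CPM had a median of 0.00, with 49.9% higher. As a percent of the effective library size, the 128 genes summed to 43.4%, 29.2% and 30.2% with i14G1-12, against 28.8%, 23.3% and 24.7% with DMSO. These values are not shares of the counts. Library i14G1-12 a gave the highest of them, and its effective size was only 84.9% of its counts outside EIF1. From group means with this library left out, 71 of the 128 genes were higher, with a median log2 ratio of 0.09. From group means per total counts outside EIF1, 79 of the 128 were higher, with a median of 0.15, while the genes under 100 CPM had a median of -0.13.

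The leading genes of each library were also compared, as shares of the counts outside EIF1. The 10 most counted genes outside EIF1 held 11.1%, 7.99% and 8.96% of those counts with i14G1-12, against 7.48%, 6.49% and 6.40% with DMSO. The 100 most counted held 34.2%, 26.9% and 27.5% with i14G1-12, against 25.95%, 22.6% and 23.3% with DMSO. The treated libraries were above all DMSO libraries in both measures. For the 10 leading genes the mean share was 9.35% ± 1.59 with i14G1-12 and 6.79% ± 0.600 with DMSO (SD, n = 3 each). TMM scaling took this into account by giving i14G1-12 a an effective size of 84.9% of its counts outside EIF1, against 101% to 108% in the other 5 libraries. Whether the lower depth of the treated libraries plays a part in these shares was not tested.

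The called genes had lower median lengths of counted sequence than all genes tested. The 27 risers ranged from 487 to 3860 nt with a median of 2104 nt, and 9 of them (33.3%) had at most 1000 nt. The 11 fallers ranged from 498 to 13378 nt with a median of 2831 nt, and 3 of them (27.3%) had at most 1000 nt. Among all 8338 tested genes, the median was 3437 nt and 570 (6.84%) had at most 1000 nt. Cut into 4 equal bins by length, from short to long, the tested genes gave 13, 13, 1 and 0 risers and 4, 4, 2 and 1 fallers.

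Since the calls lay mostly among well-counted genes, length was also compared within these. In the most abundant bin of 2085 genes the median length was 2691 nt, and 311 genes (14.9%) had at most 1000 nt. Of the 22 risers in that bin, 9 (40.9%) had at most 1000 nt, as did 3 of the 11 fallers. The median log2 fold change in that bin was 0.16 for sequences of at most 1000 nt and 0.05 for longer ones. The 1000-nt limit was chosen after the lengths were seen, and these shares are given without a test.

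Reads of near-identical genes can be split or shared by the counting, so the called and compared genes were searched for partners. Of 40 genes searched, 4 had a partner whose counts were within 15% of their own in every eIF1 library. None of the genes named here was among them. This does not clear the named genes, because the search cannot find genes that share reads unequally. In 1 of the pairs found both genes were called, so those 2 entries may not be separate results.

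The called genes were then followed into the other immunoprecipitations, which share no library with the eIF1 comparison. In eIF4G1 complexes (3 libraries against 3), 26 of the 27 eIF1 risers could be tested. All 26 were higher with i14G1-12, as were 49.6% of all genes tested in eIF4G1 complexes. The log2 fold changes of the 26 were 0.58 to 4.70, with a median of 1.14. Of the 26, 20 were higher in every treated library than in every DMSO library, where 7.4% of all genes tested in eIF4G1 complexes were. The test called 7 of the 26 as risers (edgeR, adjusted p under 0.05), against 0.347% of all genes tested there.

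The eIF1 fallers were followed in the same way. In eIF4G1 complexes 10 of the 11 were lower with i14G1-12, as were 50.4% of all genes tested. The 11 had a median log2 fold change of -0.59, and 5 were lower in every treated library, where 6.87% of all genes tested were. edgeR called none of them, with 3 lower at an unadjusted p under 0.05, as were 2.79% of all genes tested there. DESeq2 called 2 of the 10 to which it gave an adjusted p as lower, against 1.05% of all genes to which it gave one. The median change of the fallers was therefore smaller in eIF4G1 than the -1.15 seen in eIF1, where they were selected, and this difference between medians was not tested.

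In eIF3 complexes (2 libraries against 2) 26 of 26 testable risers were higher, with a median of 1.22, and 10 of 11 fallers were lower, with a median of -0.45. Of all genes tested there, 51.2% were higher and 48.8% lower. In eIF3 complexes 17 of the 26 risers were higher in every treated library than in every DMSO library, where 12.5% of all genes were. Of the 11 fallers, 5 were lower in every treated eIF3 library, where 13.5% of all genes were. In eIF2a complexes (2 against 2), 16 of 20 testable risers were higher, with a median of 0.30, and 6 of 11 fallers were lower, with a median of -0.02. Of all genes tested in eIF2a, 56.5% were higher and 43.5% lower. Only 5 of the 20 risers were higher in every treated eIF2a library, where 20.4% of all genes were. The fallers had 0 lower in every treated eIF2a library, against 9.37% of all genes. The eIF2a and eIF3 comparisons included shallow DMSO libraries of 10033 and 59179 counts.

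**Figure D4:**
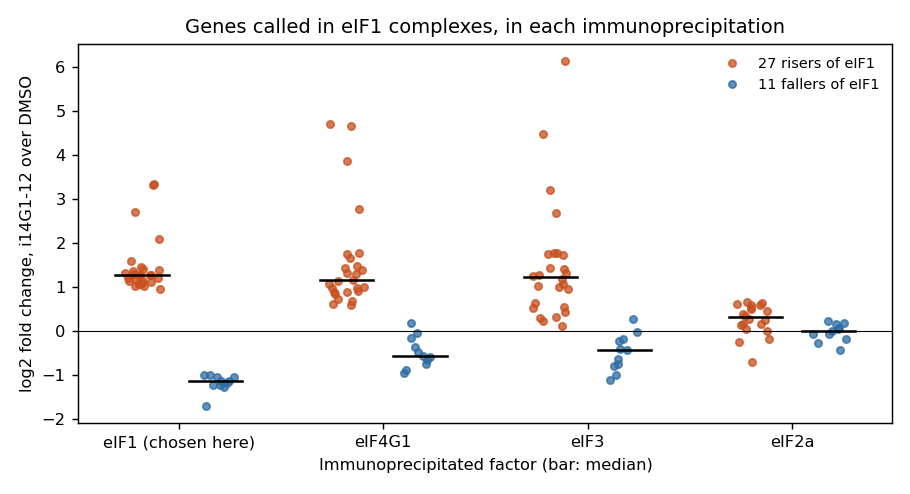
log2 fold change, i14G1-12 over DMSO, of the 27 risers (orange) and 11 fallers (blue) of eIF1 complexes, in each of the 4 immunoprecipitations, with 1 point per gene tested and the median as a bar. The eIF1 values chose the genes. The risers have medians of 1.14 in eIF4G1, 1.22 in eIF3 and 0.30 in eIF2a.

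The leading risers were higher in eIF4G1 complexes too. ENSG00000120738 had 395, 164 and 147 CPM in the i14G1-12 libraries of eIF4G1, against 12.5, 5.29 and 3.95 CPM in its DMSO libraries. Again no treated library came near a DMSO library. Its log2 fold change was 4.66 in eIF4G1 (edgeR adjusted p = 8.39e-06) and 6.13 in eIF3 (edgeR adjusted p = 0.0496). ENSG00000170345 had log2 fold changes of 4.70 in eIF4G1 (edgeR adjusted p = 0.00550) and 4.47 in eIF3 (edgeR adjusted p = 0.403). Neither gene had enough counts to be tested in eIF2a.

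The leading fallers did not pass the test elsewhere. ENSG00000197111 had log2 fold changes of -0.59 in eIF4G1 (edgeR adjusted p = 0.672), -0.45 in eIF3 and -0.27 in eIF2a. ENSG00000008988 was at 0.18 in eIF4G1 (edgeR adjusted p = 0.912), -0.04 in eIF3 and -0.18 in eIF2a. A failed test does not show that the level stayed the same. The eIF1 effect minus the eIF4G1 effect was -1.11 for ENSG00000197111 and -1.45 for ENSG00000008988, and neither difference passed the interaction test (edgeR adjusted p = 1.00 and 0.894).

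To find where the effect of i14G1-12 differed between complexes of eIF1 and of eIF4G1, the factors named together in the title, the 12 libraries were fitted at once. Of 9287 genes, 2 (0.0215%) had different effects, and both changed less in eIF1 (edgeR quasi-likelihood interaction, adjusted p under 0.05). An unadjusted p under 0.05 was found for 349 genes, where 464.35 would be expected with no difference. Both ENSG00000120738 and ENSG00000170345 fell short of the threshold, with differences of -1.30 and -1.35.

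ENSG00000204388 (2517 nt) had 1642, 1793 and 1854 CPM in eIF1 complexes with i14G1-12, against 1142, 1292 and 1407 CPM with DMSO. In eIF4G1 complexes it had 3012, 1762 and 1711 CPM with i14G1-12, against 208, 157 and 199 CPM with DMSO. It was thus already abundant in the eIF1 DMSO libraries and low in the eIF4G1 DMSO libraries, while the treated levels of the factors overlapped. The DMSO level was also high in complexes of eIF2a, which was also pulled down by an HA tag. There the gene had 2828 and 1359 CPM with i14G1-12, against 1230 and 1793 CPM with DMSO (log2 fold change 0.56). In eIF3 complexes it had 2856 and 1175 CPM with i14G1-12, against 476 and 127 CPM with DMSO (2.66). Neither of these changes passed the test (edgeR adjusted p = 1.00 in each). The DMSO values of 1793 CPM in eIF2a and 127 CPM in eIF3 rest on only 24 and 8 counts. The log2 fold changes were 0.46 (eIF1) and 3.52 (eIF4G1), so the eIF1 effect minus the eIF4G1 effect was -3.05 (SE 0.37, edgeR adjusted p = 1.50e-05). In the fit to the eIF1 libraries alone its change did not pass the test (0.47, SE 0.21, edgeR adjusted p = 0.350).

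ENSG00000204389 (2400 nt) showed a similar pattern at a lower level. It had 610, 486 and 622 CPM in eIF1 complexes with i14G1-12, against 188, 232 and 253 CPM with DMSO. In eIF4G1 complexes it had 1038, 497 and 608 CPM with i14G1-12, against 48.7, 46.6 and 52.6 CPM with DMSO. Treated and DMSO libraries were separate in both factors, with the larger gap in eIF4G1. The difference between effects was -2.50 (SE 0.41, edgeR adjusted p = 0.00344), from 1.35 in eIF1 and 3.85 in eIF4G1. In eIF1 libraries alone it was 1 of the 27 risers (1.35, SE 0.22, edgeR adjusted p = 0.00410), although the call was lost without i14G1-12 c or DMSO c (edgeR adjusted p = 0.0603 and 0.0687). Its log2 fold change was 0.61 in eIF2a and 3.20 in eIF3, and neither change passed the test (edgeR adjusted p = 1.00 and 0.561). The DMSO libraries had 371 and 747 CPM in eIF2a and 92.8 and 63.3 CPM in eIF3. Of these, 747 and 63.3 CPM rest on only 10 and 4 counts.

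The counts of this pair did not keep a fixed ratio. ENSG00000204388 had 2.69 to 3.69 times the counts of ENSG00000204389 in eIF1 libraries with i14G1-12, against 5.56 to 6.08 times with DMSO. In eIF4G1 libraries the ratio was 2.82 to 3.55 with i14G1-12 and 3.37 to 4.26 with DMSO. Whether the counting assigned reads of either gene to the other was not tested. HA tag, antibody and factor cannot be told apart in a comparison of eIF1 with eIF4G1.

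**Figure D5:**
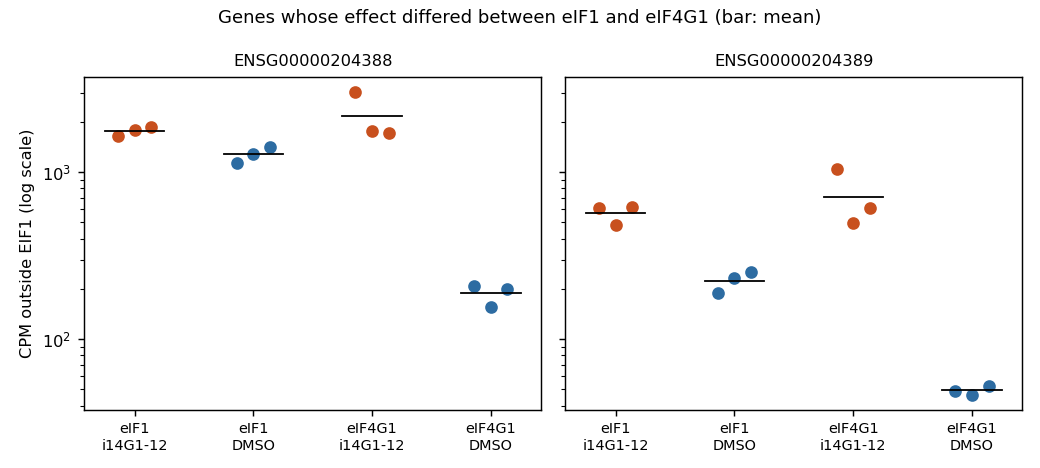
CPM outside EIF1 (log axis) of ENSG00000204388 and ENSG00000204389 in each library of eIF1 and eIF4G1 complexes, with the mean of each group as a bar, i14G1-12 in orange and DMSO in blue. The eIF4G1 DMSO libraries are the lowest in both panels, at 157 to 208 CPM for ENSG00000204388 and 46.6 to 52.6 CPM for ENSG00000204389.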

How the data were processed

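The deposited tables hold whole-number counts of reads per gene with a sequence length per gene. Per the submitters' processing notes, cutadapt, Trimmomatic, Bowtie, HISAT2, featureCounts and the hg38 build were used, with versions and settings not given in the sources used here. The eIF1 columns carry numbers other than the labels' replicate numbers, so they were assigned to a group only and called a, b and c.

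Counts were tested with edgeR 4.0.16 in R 4.3.3 (quasi-likelihood, filterByExpr with a minimum count of 10), with library sizes and TMM factors computed without EIF1 and Benjamini-Hochberg adjustment over all genes tested. The interaction used the 12 libraries of eIF1 and eIF4G1. Replicates differed by more than counting noise (chi-square over degrees of freedom 2.54 to 11.2). DESeq2 1.42.0, other scalings, filters, thinning and leave-one-out fits were alternatives, and the scripts were tested on simulated data.

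The genes named are EIF1, the interaction genes and, for lack of symbols, the 2 largest risers and the 2 largest fallers among called genes whose libraries did not overlap and whose higher group averaged 10 CPM or more. Members, lists and tests were chosen with earlier results of these data known. The reference matched 0 of 19029 IDs, so gene lists by function, cell type markers and promoters were not used here, and the labelled cell line was not checked against markers.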

Additional observations from a re-analysis of the deposited data

Results flagged for a closer look

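The effect of i14G1-12 differed between eIF1 and eIF4G1 complexes, by a test of the difference itself, for 2 genes. The eIF1 effect minus the eIF4G1 effect was -3.05 on the log2 scale for ENSG00000204388 and -2.50 for ENSG00000204389 (edgeR interaction, adjusted p = 1.50e-05 and 0.00344). In all 19 alternatives run, leaving out each of the 12 libraries included, both differences passed the threshold, at -3.20 to -2.74 for ENSG00000204388 and -2.70 to -2.14 for ENSG00000204389 (edgeR or DESeq2 adjusted p of at most 0.000259 and 0.0415). In the other immunoprecipitations the log2 fold change of ENSG00000204388 was 0.56 in eIF2a, the other HA immunoprecipitation, and 2.66 in eIF3, and that of ENSG00000204389 was 0.61 and 3.20, none of which passed the test (edgeR adjusted p = 0.561 for ENSG00000204389 in eIF3 and 1.00 for the others). Factor, tag and antibody cannot be told apart here.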

How the results depend on the processing

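No paired analysis was possible because the eIF1 columns do not carry the replicate numbers of the labels. Deviations of treated and DMSO libraries from their group means correlated at 0.199 for a with a, 0.123 for b with b and 0.031 for c with c. The other pairs lay at -0.165 to 0.081. Whether the libraries pair in the order of their columns was not tested, and the fits ignore any such pairing. Of the 38 called genes, 38 were shared with TMM over all genes (27 risers, 11 fallers) and with DESeq2 size factors (28 and 11). Total counts without EIF1, under which the median change of the tested genes was -0.11 on the log2 scale, gave 29 risers and 34 fallers. Among them were 22 of the 27 risers and all 11 fallers. Total counts with EIF1 gave 22 risers and 17 fallers, which included only 12 of the 27 risers and all 11 fallers. No filter gave 93 and 41, a minimum count of 30 gave 42 and 28, the DESeq2 test, with an adjusted p for 2670 genes, 113 and 61, and 1 fit to 12 libraries 3 and 2. Thinning every library to the smallest total gave 35 and 15. Leaving out each library gave 1 to 34 risers and 1 to 21 fallers. Fewer genes or libraries are the alternative itself; otherwise the cause was not tested. For EIF1 the change lay between -0.39 (without i14G1-12 a) and 1.01 over libraries left out. The interaction called the same 2 genes throughout, with 4 called with no filter and 3 by DESeq2 or without eIF4G1 i14G1-12 2 or 3. For the genes named, 116 alternatives left direction and call as they were, 8 ended a call and 1, for EIF1, changed sign. Alternatives on gene lists, on their shares and on summed near-identical genes were not run for lack of symbols. Treated libraries had at most 600524 counts; detection by level at that depth was not tested.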
